A study of Mus musculus with 28 samples.

Results

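The nuclear genes of oxidative phosphorylation were followed through the exit of mouse embryonic stem cells from the naive state, in knockout (KO) and wild-type (WT) cells. They were chosen by symbol: the Nduf genes of families a, b, c, s and v, Sdha to Sdhd, the Uqcr genes, the Cox4 to Cox8 genes, Cyc1 and the Atp5 genes. Pseudogenes and Cox7b2 were left out, and a mean of at least 5 CPM, counts scaled to the total of the library, was required over the libraries of a kit. Of 24116 gene rows, 95 had a matching symbol and 93 stayed after the exclusions. The limit left 87 genes in the ribosomal-RNA-depleted libraries and 88 in the polyA libraries: 45 of complex I, 4 of complex II, 9 of complex III, 12 or 13 of complex IV and 17 of complex V, with Cox7a1 counted only in the polyA set. Just inside the limit lay Ndufaf3 (6.72 CPM) and Ndufaf8 (8.74 CPM) in the depleted libraries and Cox7a1 (9.18 CPM) and Ndufaf8 (9.93 CPM) in the polyA libraries. Just outside lay Cox7a1 in the depleted libraries (3.24 CPM) and Ndufa4l2 in both kits (1.10 and 1.14 CPM). The other genes left outside were Cox4i2, Cox6a2, Cox8b and Cox8c, tissue-specific or germline forms of complex IV subunits. All members passed the separate filter on low counts before testing. No symbol of the 13 protein genes of mitochondrial DNA matched a row, and they are not analysed here.

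Oxidative phosphorylation takes place in the inner mitochondrial membrane. Complex I (NADH dehydrogenase) and complex II (succinate dehydrogenase) pass electrons to ubiquinone, complex III hands them to cytochrome c, and complex IV (cytochrome c oxidase) reduces oxygen. Complexes I, III and IV pump protons, and complex V (ATP synthase) uses the gradient to make ATP. Most subunits are encoded in the nucleus. Naive mouse embryonic stem cells are known to respire as well as use glycolysis, whereas epiblast cells primed after implantation are known to rely mainly on glycolysis.

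The cells were the female mouse embryonic stem line RGd2, which carries a destabilised GFP reporter at the Rex1 locus, and its derivatives. The ESC stage was kept on gelatin in N2B27 medium with 2i, that is 3 µM CHIR99021 (a Gsk3 inhibitor) and 1 µM PD0325901 (a Mek inhibitor); the later stages were collected 16 h or 32 h after withdrawal of the inhibitors. The depleted libraries held Zfp281 KO and WT cells at the ESC stage, 16 h and 32 h. The polyA libraries held Ehmt1 KO, Zic2 KO, Ehmt1/Zic2 double KO and WT cells at 32 h and at the ESC stage. Each of the 14 groups had 2 libraries, from 2 clones of a KO genotype or from 2 WT lines. In the depleted kit the labels name the first WT line WT and the second Zfp281_WT. In the polyA kit they name WT replicate 1 Ehmt1_WT and WT replicate 2 Zic2_WT. Each KO genotype was set against both WT lines of its kit. The tests rest on the spread between the 2 lines of a group, pooled over all groups of a fit. The kind of mutation is not given in the sources used here.

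Library totals were 18086421 to 36365192 counts in the depleted kit and 19013882 to 28777604 in the polyA kit. Summed CPM of 8 stem cell markers was 1545 to 2458 at 32 h and 3906 to 4539 at the ESC stage in the polyA libraries; in the depleted libraries it was 1519 to 2490 at 32 h and 3448 to 4644 at the ESC stage. Markers of fibroblasts summed to at most 17.8 CPM with up to 3 of 6 genes at 0, those of primitive endoderm to at most 20.4 CPM, and those of trophoblast to at most 90.8 CPM. The ESC and 32 h libraries of the second WT line of the depleted kit stood apart. Of 1108 olfactory receptor genes, 89.0% had counts in its ESC library and 87% in its 32 h library. The other depleted libraries had 8.9% to 24.8%, with 8.9% in the 16 h library of the same line. In the polyA kit, the ESC library of WT replicate 1 held the highest CPM of 66 of the 88 members and the largest summed CPM of cytosolic ribosomal protein genes (49860, against 39440 in WT replicate 2 and 34350 to 41030 in the KO ESC libraries). Ehmt1 had 17.6 to 31.4 CPM in Ehmt1 KO and double KO libraries and 80.3 to 153.5 CPM in WT libraries. Transcript levels of the other targets did not separate the genotypes (Zfp281 had 277 to 348 CPM in Zfp281 KO and 249 to 354 CPM in WT; Zic2 had 66.5 to 228 CPM in Zic2 KO and double KO and 105 to 145.5 CPM in WT), and the labels do not say which part of each gene was altered.

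Promoters of 74 of the 88 members were found in the RefSeq table for GRCm38.p6, as 250 bases before to 50 after the annotated start. Nuclear respiratory factor 1 (Nrf1), the ETS protein Gabpa, estrogen-related receptors and Yy1 are known regulators of many such genes, so their core letters were looked for on both strands, with overlapping matches counted. The Nrf1 letters GCGCANGCG were in 28.4% of member promoters and in 6.5% of all 27025 promoters. The ETS letters CCGGAAG were in 24.3% of member promoters and 9.1% of all, the estrogen-related receptor letters AAGGTCA in 10.8% of members and 4.7% of all, and the Yy1 letters AAGATGG in 14.9% of members and 6.5% of all. The SP letters GGGCGGG were in 36.5% of members and 25.8% of all, and the E-box CACGTG in 8.1% of members and 7.2% of all. Of 47 members called lower in polyA WT cells at 32 h 31.9% held the Nrf1 letters, against 22.2% of the other 27. The shares were 23.4% and 25.9% for ETS, 12.8% and 7.4% for estrogen-related receptor and 12.8% and 18.5% for Yy1 letters. They were 34.0% and 40.7% for SP letters and 8.5% and 7.4% for the E-box. These differences were not tested. Promoters of 6 members are shown, 5 that were lower after 2i withdrawal in both kits and Cox7c, which was higher in the depleted WT cells, with these letters in capitals. Ndufb4 (chr16:37654319-37654618, minus strand) holds 3 Nrf1 matches, 1 estrogen-related receptor match and 1 SP match. Sdha (chr13:74350191-74350490, minus strand) and Uqcrc1 (chr9:108936398-108936697, plus strand) hold 3 Nrf1 matches each, those of Uqcrc1 partly overlapping. Cox6b1 (chr7:30626065-30626364, minus strand) holds 1 ETS match, Cox7a2l (chr17:83514284-83514583, minus strand) 1 SP match and Cox7c (chr13:86046746-86047045, minus strand) 1 Yy1 match. A match is a description of the letters and not a binding site.
Ndufb4 promoter: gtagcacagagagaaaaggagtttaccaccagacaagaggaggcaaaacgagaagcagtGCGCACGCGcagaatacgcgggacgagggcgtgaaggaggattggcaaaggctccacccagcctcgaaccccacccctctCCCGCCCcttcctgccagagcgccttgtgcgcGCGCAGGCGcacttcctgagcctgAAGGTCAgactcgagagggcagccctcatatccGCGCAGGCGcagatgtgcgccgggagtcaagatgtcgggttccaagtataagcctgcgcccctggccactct
Sdha promoter: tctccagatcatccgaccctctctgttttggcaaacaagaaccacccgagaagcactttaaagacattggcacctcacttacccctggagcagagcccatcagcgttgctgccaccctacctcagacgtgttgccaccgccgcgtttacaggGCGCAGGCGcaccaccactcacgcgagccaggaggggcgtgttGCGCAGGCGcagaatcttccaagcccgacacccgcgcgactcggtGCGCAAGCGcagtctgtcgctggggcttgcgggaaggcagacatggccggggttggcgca
Uqcrc1 promoter: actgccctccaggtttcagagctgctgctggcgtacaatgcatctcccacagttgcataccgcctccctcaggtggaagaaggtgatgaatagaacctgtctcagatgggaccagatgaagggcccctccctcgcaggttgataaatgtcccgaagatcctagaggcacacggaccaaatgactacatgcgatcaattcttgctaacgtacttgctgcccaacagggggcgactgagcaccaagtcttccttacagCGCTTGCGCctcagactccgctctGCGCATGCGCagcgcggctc
Cox6b1 promoter: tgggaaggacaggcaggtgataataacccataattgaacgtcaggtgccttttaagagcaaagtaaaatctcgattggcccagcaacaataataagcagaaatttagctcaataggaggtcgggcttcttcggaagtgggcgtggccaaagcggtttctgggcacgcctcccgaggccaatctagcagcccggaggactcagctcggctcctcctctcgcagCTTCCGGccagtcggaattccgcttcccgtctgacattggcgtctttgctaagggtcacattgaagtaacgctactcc
Cox7a2l promoter: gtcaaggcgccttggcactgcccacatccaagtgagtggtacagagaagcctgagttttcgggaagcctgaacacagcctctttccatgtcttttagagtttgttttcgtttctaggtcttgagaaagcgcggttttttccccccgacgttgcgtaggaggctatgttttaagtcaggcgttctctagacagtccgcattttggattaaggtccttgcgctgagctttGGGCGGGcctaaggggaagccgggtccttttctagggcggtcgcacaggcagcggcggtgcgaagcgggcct
Cox7c promoter: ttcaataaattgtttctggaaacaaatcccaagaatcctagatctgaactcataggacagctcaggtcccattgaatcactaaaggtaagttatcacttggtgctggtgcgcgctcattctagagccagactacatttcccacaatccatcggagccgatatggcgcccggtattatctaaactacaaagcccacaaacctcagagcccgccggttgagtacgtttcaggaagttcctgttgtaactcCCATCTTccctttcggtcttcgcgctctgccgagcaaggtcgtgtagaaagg

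The summed CPM of oxidative phosphorylation genes was lower in the polyA libraries after 2i withdrawal. In WT cells the 88 members summed to 11577 and 11980 CPM at 32 h, against 17352 and 14012 CPM at the ESC stage. Both 32 h libraries lay below both ESC libraries, and the ESC libraries differed from each other by more than the 32 h ones. Ehmt1 KO cells had 11741 and 11914 CPM at 32 h, against 14253 and 13857 CPM at the ESC stage. Zic2 KO cells had 12103 and 12523 CPM at 32 h, against 14285 and 14575 CPM at the ESC stage. Double KO cells had 12315 and 11830 CPM at 32 h, against 12981 and 13206 CPM at the ESC stage. In every genotype of the polyA kit the stages did not overlap, and the difference of means was smallest in the double KO (12072 ± 342.9 against 13094 ± 159.1 CPM, SD, n = 2 each). In the depleted libraries Zfp281 KO cells had 12044 and 11928 CPM at the ESC stage, 11513 and 11622 CPM at 16 h and 11518 and 11412 CPM at 32 h. The depleted WT libraries had 12589 and 10287 CPM at the ESC stage, 11056 and 12343 CPM at 16 h and 10679 and 10065 CPM at 32 h, so that WT stages overlapped. A sum of CPM is relative to the normalised library total. A lower sum from fewer transcripts per cell and one from a larger total of other transcripts cannot be told apart here.

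**Figure D1:**
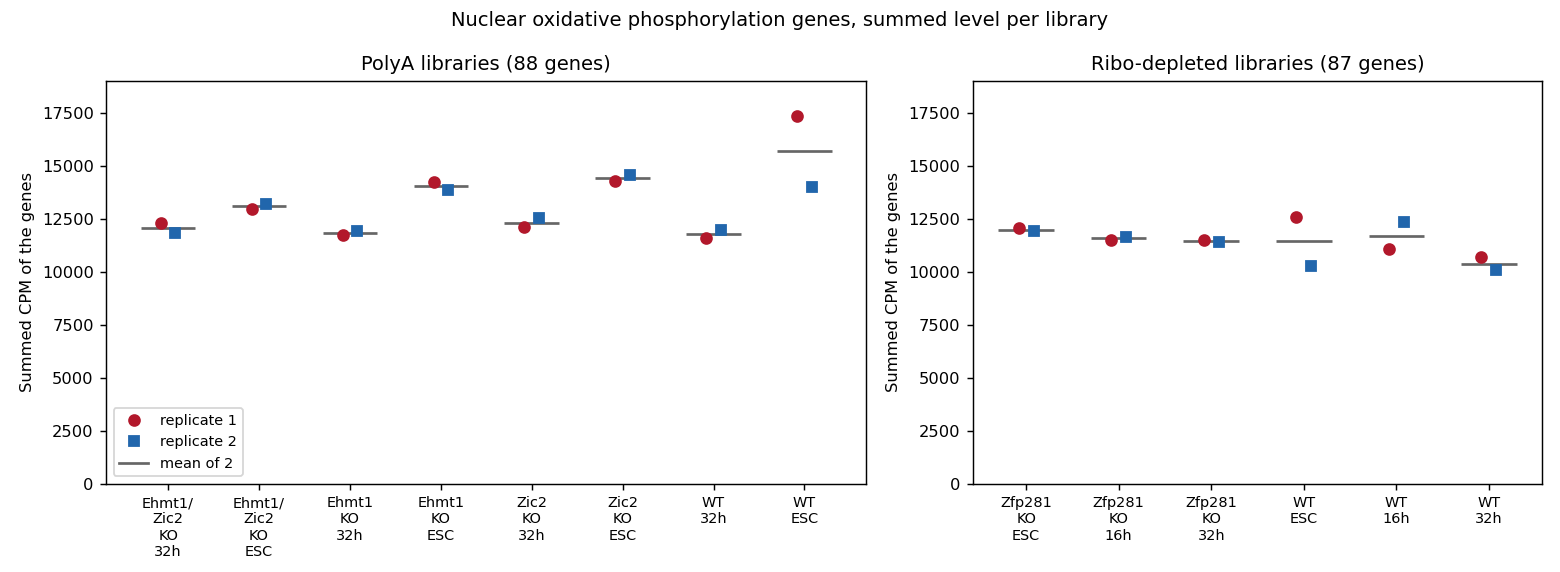
Summed CPM of the members in each library (points) with the group mean (line), for the polyA kit (88 genes) and the depleted kit (87 genes). In the polyA kit the 32 h libraries of each genotype lie below its ESC libraries, and WT ESC replicate 1 is the highest of all at 17352 CPM.

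In polyA WT cells, genes of all 5 complexes fell together between the ESC stage and 32 h. Of 88 members, 55 were called lower and 0 higher (edgeR quasi-likelihood test, Benjamini-Hochberg adjusted p under 0.05 over all genes tested), where 17.8% of all genes tested were called lower and 17.9% higher. The log2 fold change was negative for 85 members, with a median of -0.455, against 0.011 over all genes. The 2 WT lines differed in size. Within replicate 1, 86 of 88 members were lower at 32 h (median -0.679), and within replicate 2, 76 were (median -0.221). Of genes with a mean of at least 1 CPM, 51.4% and 49.8% were lower in these lines. By complex, the calls were 23 of 45 in complex I, 4 of 4 in complex II, 6 of 9 in complex III, 10 of 13 in complex IV and 12 of 17 in complex V. The median change was -0.405 in complex I, -0.444 in complex II, -0.469 in complex III, -0.634 in complex IV and -0.485 in complex V. The count depended on single libraries: 21 were called without WT ESC replicate 1 (1 of them higher), 20 without WT 32 h replicate 1 and 33 without WT 32 h replicate 2. In each case 1 arm held a single library, assumed to vary like the other groups. Of the 55, 20 kept their call under all 9 alternatives, among them Sdha, Ndufb4, Uqcrc1, Cox6b1, Cox5a, Cox7a2l, Cox4i1 and Atp5c1.

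Complex IV had the lowest median of the 5 complexes and held the members with the 2 smallest adjusted p, Cox7a2l and Cox6b1. Cox6b1, a small subunit on the intermembrane side, had 124.3 and 131.7 CPM at 32 h, against 311.4 and 226.8 CPM at the ESC stage. Both 32 h libraries lay far below both ESC libraries, and the log2 fold change was -1.07 ± 0.16 (SE; adjusted p = 0.000239). Cox5a, a subunit on the matrix side, had 109.4 and 123.8 CPM at 32 h, against 272.3 and 195.7 CPM at the ESC stage (-1.005 ± 0.16, adjusted p = 0.000376). Cox7a2l, which joins complexes III and IV into supercomplexes, had 94.6 and 102.0 CPM at 32 h, against 200.4 and 164.6 CPM at the ESC stage (-0.89 ± 0.11, adjusted p = 7.33e-05). For all 3 genes the stages did not overlap, though the 2 ESC libraries of Cox5a lay far apart. Cox4i1, the ubiquitous form of subunit 4, fell by 0.60 ± 0.12 on the log2 scale (adjusted p = 0.00176) and Cox6a1, the ubiquitous form of subunit 6a, by 0.74 ± 0.15 (adjusted p = 0.00212). Cox7c stood apart: it had 84.5 and 77.3 CPM at 32 h, against 79.0 and 61.1 CPM at the ESC stage, so the stages overlapped (0.21 ± 0.12, adjusted p = 0.19). Cox6c (-0.34 ± 0.12, adjusted p = 0.0503) and Cox5b (-0.53 ± 0.28, adjusted p = 0.156) were also not called.

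All 4 subunits of complex II were called lower. Sdha, the flavoprotein that oxidises succinate, had 267.8 and 275.8 CPM at 32 h, against 378.9 and 375.6 CPM at the ESC stage, with little difference between lines at either stage (-0.47 ± 0.09, adjusted p = 0.00119). The iron-sulphur subunit Sdhb fell by 0.40 ± 0.12 on the log2 scale, the membrane anchors Sdhc by 0.59 ± 0.16 and Sdhd by 0.41 ± 0.12. In complex III, Uqcrb had 54.3 and 61.9 CPM at 32 h, against 121.4 and 87.2 CPM at the ESC stage (-0.84 ± 0.18, adjusted p = 0.00294). The core proteins Uqcrc1 and Uqcrc2 fell by 0.56 ± 0.12 and 0.56 ± 0.09, the small subunit Uqcr10 by 0.73 ± 0.13 and the Rieske iron-sulphur protein Uqcrfs1 by 0.35 ± 0.11. Cytochrome c1, Cyc1, was at -0.23 ± 0.11 (adjusted p = 0.126) and was not called.

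In complex I the largest called change was that of Ndufb4, an accessory subunit of the membrane arm, with 16.0 and 16.8 CPM at 32 h, against 36.8 and 29.1 CPM at the ESC stage. The stages did not overlap and the log2 fold change was -1.01 ± 0.22 (adjusted p = 0.00296). Ndufb5, also of the membrane arm, fell by 0.70 ± 0.12 and Ndufs5 by 0.74 ± 0.14; reads of Ndufs5 may be shared with its pseudogene Ndufs5-ps. The catalytic subunits were mixed: Ndufv1, which binds NADH, fell by 0.55 ± 0.11 (adjusted p = 0.0018), while Ndufs1, the large iron-sulphur subunit, had 195.0 and 193.5 CPM at 32 h, against 215.9 and 211.7 CPM at the ESC stage (-0.14 ± 0.09, adjusted p = 0.232). Ndufa4, which keeps a complex I name but is now known as a subunit of complex IV, fell by 0.46 ± 0.11 (adjusted p = 0.00563). Of the 8 assembly factors, which help build complex I and do not stay in it, Ndufaf5 (-0.77 ± 0.15, adjusted p = 0.00147) and Ndufaf1 (-0.55 ± 0.18, adjusted p = 0.0271) were called lower. The other 6 were not called; Ndufaf7, a methyltransferase, was at 0.29 ± 0.13 (adjusted p = 0.102) and Ndufaf4 at -0.05 ± 0.14 (adjusted p = 0.811).

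All 17 complex V members had a negative log2 fold change, and 12 of them were called. Atp5c1, the gamma subunit of the rotor, had 249.3 and 243.7 CPM at 32 h, against 406.4 and 334.6 CPM at the ESC stage (-0.59 ± 0.10, adjusted p = 0.00071). Atp5mpl, a small subunit of the membrane part, fell by 0.73 ± 0.12 (adjusted p = 0.000391), the coupling factor Atp5j by 0.64 ± 0.17 (adjusted p = 0.00902) and the stalk subunit Atp5o by 0.65 ± 0.21 (adjusted p = 0.0318). Atp5b, the catalytic beta subunit, had 2520 and 2561 CPM at 32 h, against 3248 and 2737 CPM at the ESC stage, and missed the threshold (-0.24 ± 0.09, adjusted p = 0.0577). The 3 genes that encode the same mature c-ring protein were called in 1 of 3 cases: Atp5g3 fell by 0.47 ± 0.14 (adjusted p = 0.0174), whereas Atp5g1 was at -0.25 ± 0.23 (adjusted p = 0.439) and Atp5g2 at -0.07 ± 0.14 (adjusted p = 0.727). The difference between the 3 genes was not tested.

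**Figure D2:**
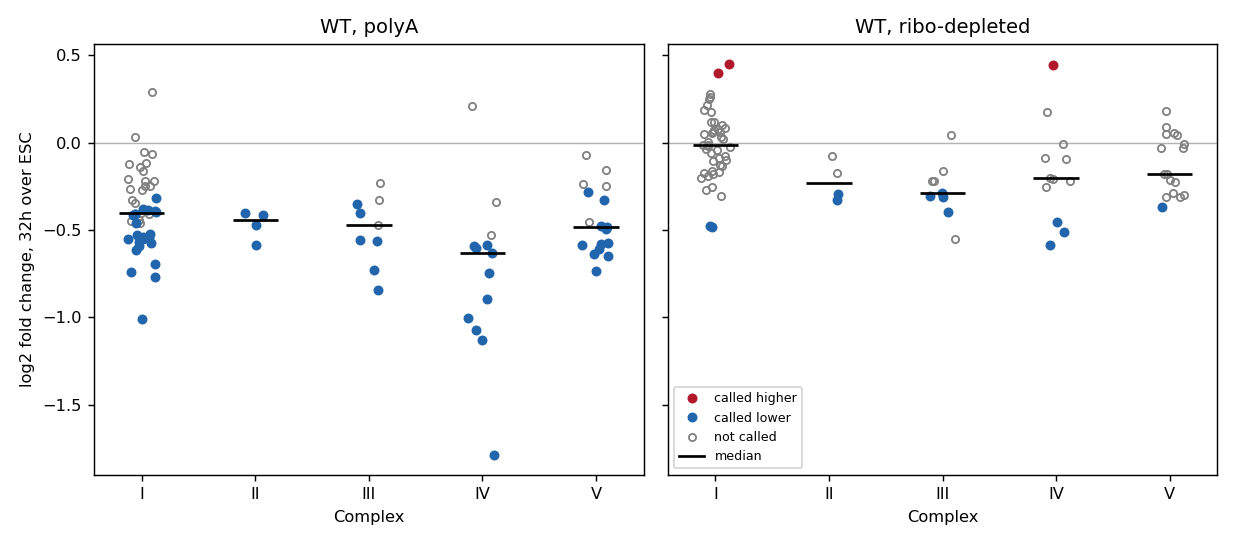
Log2 fold change of each member between 32 h and the ESC stage in WT cells, by complex, for the polyA and the depleted kit; filled points are called at adjusted p under 0.05 and bars mark medians. Complex IV holds the lowest median in the polyA kit (-0.634), and changes in the depleted kit lie closer to 0.

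The same stages in the depleted WT libraries gave fewer calls and smaller changes. There 12 of 87 members were called lower and 3 higher, where 11.0% of all genes tested were called lower and 15.0% higher, and the median was -0.089, against 0.020 over all genes. A fit with the line as a block, which pairs the stages of each line, called 31 lower and 10 higher. The second WT line, with its wide olfactory receptor signal, weighed on this: without it 42 were called lower and 3 higher (median -0.265), without its ESC library alone 44 were called, without its 32 h library 9, and a fit of only these 4 libraries called 1. Within the first line 73 of 87 members were lower at 32 h (median -0.223). Of genes with a mean of at least 1 CPM, 52.7% were lower there (median -0.028). Within the second line 42 of 87 members were lower (median 0.011), where 42.5% of those genes were lower (median 0.082). By complex, the lower calls were 2 of 45 in complex I, 2 of 4 in complex II, 4 of 9 in complex III, 3 of 12 in complex IV and 1 of 17 in complex V. Cox6b1 had 98.7 and 97.9 CPM at 32 h, against 171.7 and 131.1 CPM at the ESC stage (-0.59 ± 0.10, adjusted p = 0.0019), and was the member called under all 10 alternatives. Cox7a2l (-0.45 ± 0.07, adjusted p = 0.00119), Ndufb4 (-0.48 ± 0.10, adjusted p = 0.00751) and Uqcrc1 (-0.40 ± 0.07, adjusted p = 0.00342) were also lower. The 3 higher members were Ndufa2 (0.40 ± 0.09, adjusted p = 0.011), Ndufaf8 (0.45 ± 0.14, adjusted p = 0.0446) and Cox7c (0.45 ± 0.14, adjusted p = 0.0456). Cox7c had 65.5 and 60.6 CPM at 32 h, against 57.4 and 37.5 CPM at the ESC stage, the lowest of them in the second WT line.

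Across kits, which share no library, 11 members were called lower in both WT sets: Atp5j, Cox5a, Cox6b1, Cox7a2l, Ndufaf5, Ndufb4, Sdha, Sdhc, Uqcrb, Uqcrc1 and Uqcrc2. They are 91.7% of the 12 lower calls of the depleted kit and 20% of the 55 of the polyA kit. With 55 of 88 members called lower and 85 negative in the polyA kit, much overlap follows from those numbers alone. The overlap over all genes was not computed. Over the 87 members measured in both, the log2 changes had a Pearson correlation of 0.706, given as a description over genes that share libraries; 58 were negative in both kits, and for 84 the polyA change was the lower. Within-line changes could be set side by side in 12 lines. In all 12, 26 of the 87 members were lower at 32 h, among them Cox6b1, Cox5a, Cox7a2l, Sdha, Uqcrc2, Uqcrfs1, Ndufb4, Atp5a1 and Atp5c1. In single lines 42.5% to 52.8% of genes with a mean of at least 1 CPM were lower. The share of all genes lower in all 12 lines was not computed. Cox6b1 ranged over these lines from -1.32 in polyA WT replicate 1 to -0.42 in the second depleted WT line. Cox7c, Ndufaf7 and Ndufaf8 were lower at 32 h in at most 2 of the 12 lines.

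**Figure D3:**
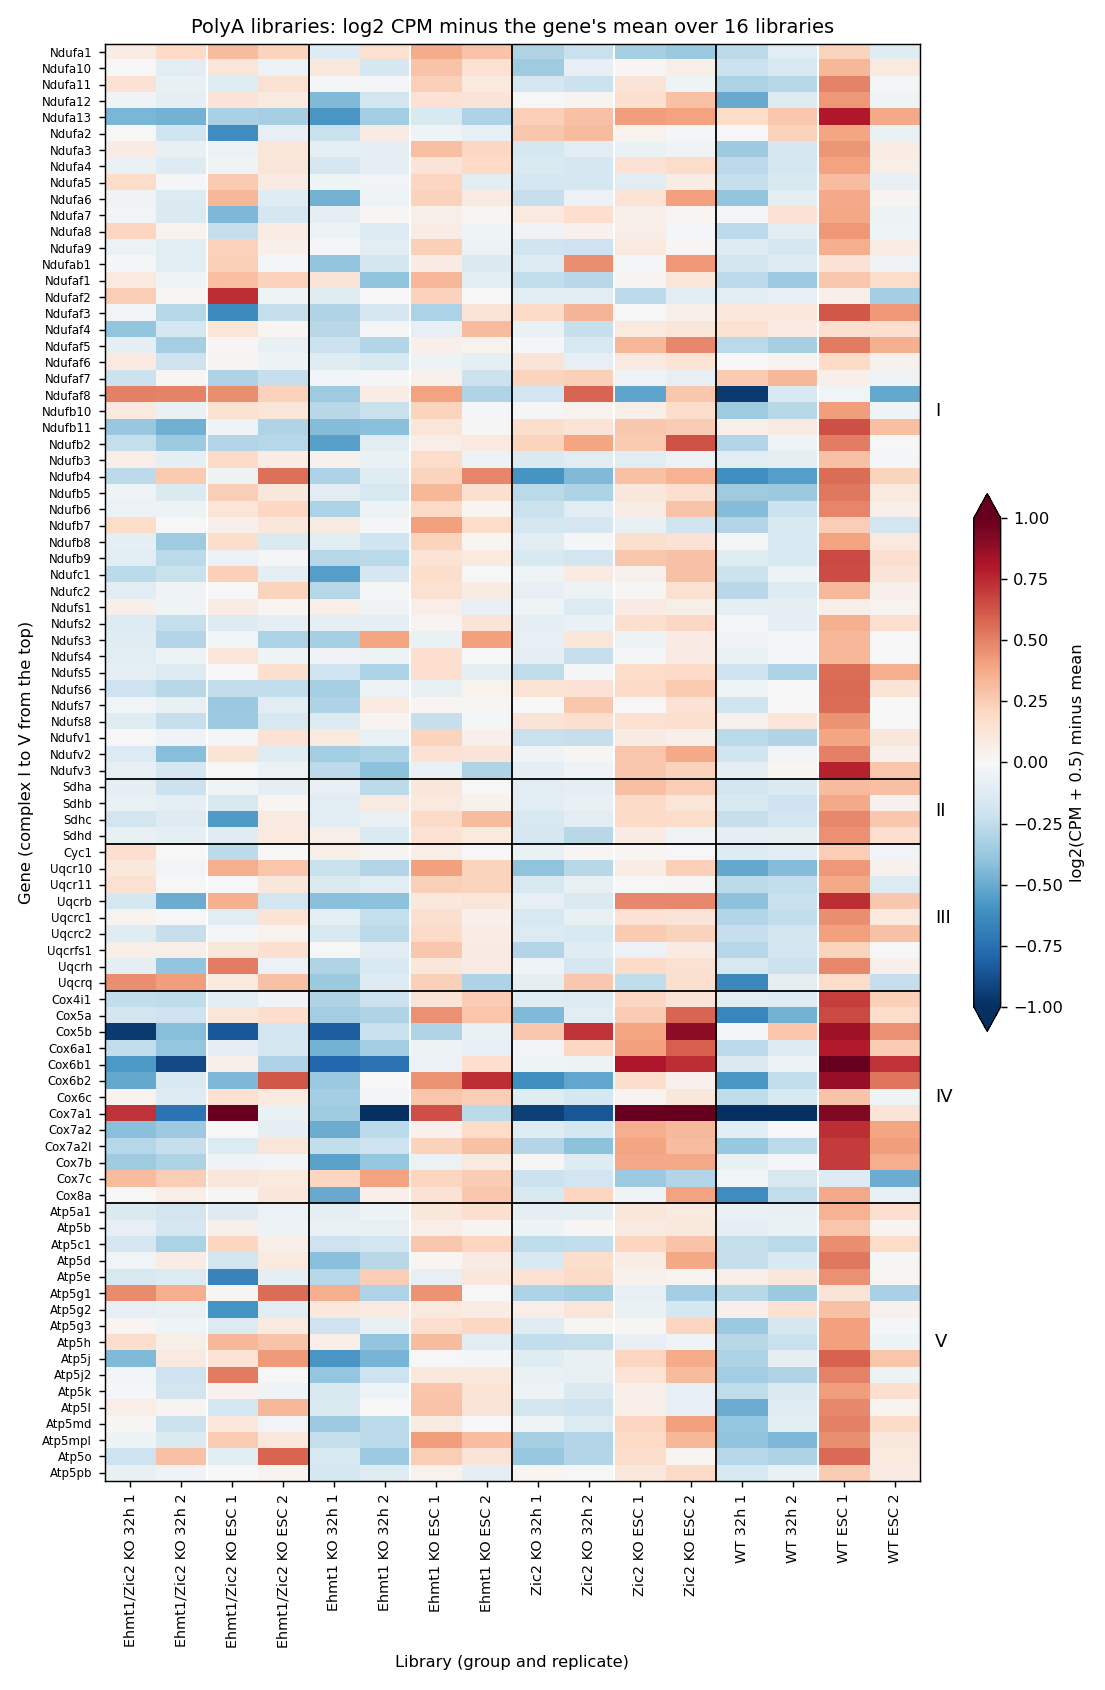
Level of each of the 88 members in the 16 polyA libraries, as log2(CPM + 0.5) minus the member's mean over the libraries (red above, blue below), with genes in rows ordered by complex. The ESC library of WT replicate 1 is red in most rows and holds the maximum of 66 members.

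The libraries at 16 h came in a separately deposited table, so that stage and table cannot be told apart. The median over all genes was itself shifted by -0.105 in WT cells at 16 h against the ESC stage. The second WT line had its wide olfactory receptor signal at the ESC stage and 32 h but not at 16 h. In WT cells 5 members were called lower and 7 higher at 16 h against the ESC stage (10.6% and 14.3% of all genes), with a member median of 0.061; it was -0.158 without the second WT line, which left 30 lower and 2 higher. Between 32 h and 16 h, 7 were called lower and 1 higher (8.87% and 7.55% of all genes), with a member median of -0.196 against 0.109 over all genes; a fit with the line as a block called 16 lower and 1 higher. Cox7a2l had 200 and 183.2 CPM at the ESC stage, 126.0 and 148.9 CPM at 16 h and 135.8 and 137.9 CPM at 32 h: its change was present at 16 h (-0.48 ± 0.10, adjusted p = 0.00226) and it moved by -0.01 ± 0.10 thereafter (adjusted p = 0.967). Cox6b1 had 171.7 and 131.1 CPM, then 132.3 and 146.6 CPM, then 98.7 and 97.9 CPM: at 16 h it was at -0.12 ± 0.11 (adjusted p = 0.426) and it fell by 0.51 ± 0.11 between 16 h and 32 h (adjusted p = 0.00735). Its lines went apart at 16 h, the first lying below and the second above its own ESC library, and the courses of the 2 genes were not compared by a test. Atp5j fell by 0.51 ± 0.09 between 16 h and 32 h (adjusted p = 0.00203) and was the member that kept this call under all 10 alternatives. Counts of the WT contrasts moved with single libraries, from 1 without WT 16 h replicate 2 to 33 without WT ESC replicate 1 for 16 h against the ESC stage (5 without WT 16 h replicate 1), and from 2 without WT 16 h replicate 2 to 15 without WT 32 h replicate 1 for 32 h against 16 h (4 without WT 32 h replicate 2).

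In Zfp281 KO cells 6 members were called lower and 4 higher at 32 h against the ESC stage (10.4% and 14.2% of all genes), with a median of -0.013 against 0.086 over all genes. The block on line gave 13 lower and 11 higher, a fit of only these 4 libraries 31 lower and 10 higher, and leaving out any of the 4 KO libraries left 0 to 2 calls (0 without KO ESC replicate 1, 1 without KO ESC replicate 2, 2 without either KO 32 h library). Cox6b1 had 101.5 and 103.1 CPM at 32 h, against 167.4 and 158.7 CPM at the ESC stage (-0.60 ± 0.10, adjusted p = 0.00198). The 2 clones were close at both stages. Cox5a (-0.54 ± 0.14, adjusted p = 0.0195), Ndufb4 (-0.48 ± 0.10, adjusted p = 0.00814) and Cox7a2l (-0.33 ± 0.07, adjusted p = 0.00759) were also lower, and Cox6c (0.42 ± 0.10, adjusted p = 0.0119), a subunit called in neither WT set, Ndufa2 and Ndufaf8 were among the higher ones. At 16 h against the ESC stage 1 member was lower and 1 higher (7.22% and 6.99% of all genes), and at 32 h against 16 h 1 was lower and 0 higher (2.38% and 1.98%); none stayed when any 1 of the KO libraries was left out, and with only the groups compared 21 were called at 16 h against the ESC stage and 12 at 32 h against 16 h. No member's stage change differed between Zfp281 KO and WT cells (interaction, 0 of 87 by edgeR and 0 by DESeq2, where 4.15% of all genes were called), with 3 at an unadjusted p under 0.05. With the line as a block 4 were called, without the second WT line 13, and without single WT libraries 1 (32 h replicate 1), 3 (ESC replicate 1) or 2 (ESC replicate 2).

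In each KO genotype of the polyA kit the members called between 32 h and the ESC stage were all lower, and in the double KO they were below the share of all genes. In Ehmt1 KO cells 16 members were called lower and 0 higher (11.0% and 11.5% of all genes), with a median of -0.28. In Zic2 KO cells 19 were called lower and 0 higher (15.2% and 15.7% of all genes), with a median of -0.218. In double KO cells 2 were called lower and 0 higher (7.19% and 7.17% of all genes), with a median of -0.131. Medians within single lines were -0.37 and -0.22 in Ehmt1 KO, -0.221 and -0.208 in Zic2 KO and -0.091 and -0.171 in double KO cells. In WT cells they were -0.679 and -0.221. With only the 4 libraries of each genotype in the fit, 12 members were called in Ehmt1 KO cells, 53 in Zic2 KO cells (50 lower and 3 higher) and 0 in double KO cells, against 53 in WT cells, and differences between these counts were not tested. Blocking on line called 33 members lower in Ehmt1 KO, 31 in Zic2 KO and 10 in double KO cells. Without 1 library the counts were 8 to 10 in Ehmt1 KO cells (8 and 9 without 32 h replicates 1 and 2, 10 and 9 without ESC replicates 1 and 2), 8 to 15 in Zic2 KO cells (8 and 9 without 32 h replicates 1 and 2, 10 without ESC replicate 2) and 1 to 9 in double KO cells (1 without 32 h replicate 2 or ESC replicate 1, 9 without ESC replicate 2). Cox6b1 was called lower in every genotype: by 0.82 ± 0.16 in Ehmt1 KO cells, 0.83 ± 0.16 in Zic2 KO cells and 0.61 ± 0.16 in double KO cells. Atp5c1 was too, by 0.44 ± 0.10 in Ehmt1 KO cells, 0.50 ± 0.10 in Zic2 KO cells and 0.38 ± 0.10 in double KO cells. In double KO cells these 2 were the whole of the calls.

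The difference in stage change between KO and WT cells was tested as an interaction, with the WT libraries shared by the 3 tests. Among these was WT ESC replicate 1, which was high for most members. The interaction was positive for 79 of 88 members in Ehmt1 KO (median 0.16), 84 in Zic2 KO (0.232) and 83 in double KO cells (0.354). Over all genes the medians were -0.002, 0.018 and 0.001. The shift of the members as a set was not tested. No member was called for Ehmt1 KO (0 by edgeR and by DESeq2, 3 at an unadjusted p under 0.05; 1.86% of all genes called) or for Zic2 KO (0 by both tools, 3 unadjusted; 0.0% of all genes). For the double KO, Cox7a2l was called (5.29% of all genes), and 30 members had an unadjusted p under 0.05. Cox7a2l had 101.1 and 105.1 CPM at 32 h, against 112.3 and 134.4 CPM at the ESC stage, in double KO cells, and 94.6 and 102.0 CPM at 32 h, against 200.4 and 164.6 CPM at the ESC stage, in WT cells. The 4 values at 32 h were alike and the WT cells stood higher at the ESC stage, and the interaction was 0.634 ± 0.16 (adjusted p = 0.0388). DESeq2 called 4 members and the block on line 10, all with a positive interaction. Leaving out any of 6 of the 8 libraries left 0 calls; without WT ESC replicate 2 21 members were called, and without double KO ESC replicate 2 9.

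Set against WT cells at the ESC stage, the share of members called lower was near that of all genes in Ehmt1 KO cells and above it in double KO cells. In Ehmt1 KO cells 11 were called lower and 1 higher (12.1% and 14.8% of all genes), with a median of -0.124. For the double KO 28 were called lower and 1 higher (18.5% and 20.9% of all genes), with a median of -0.239. In the double KO the lower calls were 14 of 45 in complex I, 3 of 4 in complex II, 1 of 9 in complex III, 7 of 13 in complex IV and 3 of 17 in complex V. These contrasts share the WT libraries, of which ESC replicate 1 was high for most members: without it 4 were lower and 3 higher in Ehmt1 KO cells (median 0.043) and 13 lower and 1 higher in double KO cells (median -0.051). Without WT ESC replicate 2, 48 members were called in double KO cells, all lower. With only the groups compared in the fit, 7 members were called in double KO cells, all lower, and 5 in Ehmt1 KO cells. Without double KO ESC replicate 1 18 were called, and without Ehmt1 KO ESC replicate 1 7. Cytosolic ribosomal protein genes moved alongside in the double KO (39 of 83 lower, 2 higher, median -0.309), and their part in the result was not tested.

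Cox6b1 was lower in Ehmt1 KO and double KO cells at both stages. At the ESC stage it had 131.5 and 153.8 CPM in Ehmt1 KO, 142.2 and 110.4 CPM in double KO and 241.1 and 229.2 CPM in Zic2 KO cells, against 311.4 and 226.8 CPM in WT cells. At 32 h it had 79.3 and 81.9 CPM in Ehmt1 KO, 91.9 and 73.3 CPM in double KO and 132.8 and 132.6 CPM in Zic2 KO cells, against 124.3 and 131.7 CPM in WT cells. At both stages the 4 Ehmt1 KO and double KO libraries lay below all Zic2 KO and WT libraries. At the ESC stage the log2 fold change was -0.92 ± 0.16 in Ehmt1 KO cells (adjusted p = 0.00112) and -1.09 ± 0.16 in double KO cells (adjusted p = 0.000235). At 32 h it was -0.67 ± 0.16 in Ehmt1 KO cells (adjusted p = 0.00845) and -0.63 ± 0.16 in double KO cells (adjusted p = 0.00776).

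Ndufa13, a complex I subunit also known as GRIM-19 for a role in cell death, gave the same picture. At the ESC stage it had 80.7 and 72.5 CPM in Ehmt1 KO, 71.8 and 71.3 CPM in double KO and 120.3 and 119.2 CPM in Zic2 KO cells, against 157.5 and 117.4 CPM in WT cells. At 32 h it had 59.9 and 70.6 CPM in Ehmt1 KO, 65.2 and 64.6 CPM in double KO and 106.1 and 110.2 CPM in Zic2 KO cells, against 102.0 and 108.8 CPM in WT cells. The Ehmt1 KO and double KO libraries did not overlap the others at either stage. The log2 fold change at the ESC stage was -0.84 ± 0.13 in Ehmt1 KO cells (adjusted p = 0.000432) and -0.94 ± 0.13 in double KO cells (adjusted p = 0.000143), and at 32 h -0.69 ± 0.13 in Ehmt1 KO cells (adjusted p = 0.00186) and -0.70 ± 0.13 in double KO cells (adjusted p = 0.0011). Ndufa13 kept its call under all 8 alternatives in each of these 4 contrasts.

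Other members were lower at both stages too. In Ehmt1 KO cells 4 were called lower at both stages (Cox6b1, Cox7b, Ndufa13 and Ndufb11), 36.4% of the 11 at the ESC stage and all of the 4 at 32 h. For the double KO 5 were (Cox5b, Cox6b1, Cox7a2, Ndufa13 and Ndufb11), 17.9% of the 28 at the ESC stage and 71.4% of the 7 at 32 h. The matching overlaps over all genes were not computed. Cox5b, which carries a zinc ion on the matrix side of complex IV, had 32.5 and 51.4 CPM in double KO and 47.7 and 56.2 CPM in Ehmt1 KO cells, against 106.4 and 81.1 CPM in WT cells at the ESC stage. The KO libraries lay below the WT ones (double KO -1.16 ± 0.28, adjusted p = 0.0062; Ehmt1 KO -0.85 ± 0.28, adjusted p = 0.0384), and the 2 double KO clones were further apart than those of Ehmt1 KO. Ndufaf3, an assembly factor of complex I, had 8.21 and 11.0 CPM in double KO cells, against 20.4 and 17.8 CPM in WT cells at the ESC stage (-0.99 ± 0.19, adjusted p = 0.00156). Cox7c went the other way: at the ESC stage it had 100.2 and 103.3 CPM in Ehmt1 KO and 93.2 and 92.4 CPM in double KO cells, against 79.0 and 61.1 CPM in WT cells (Ehmt1 KO 0.54 ± 0.12, adjusted p = 0.00474; double KO 0.41 ± 0.12, adjusted p = 0.0159).

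At 32 h fewer members separated Ehmt1 KO from WT cells, with 4 lower and 1 higher (11.4% and 15.1% of all genes) and a median of 0.039. The count was 2 without KO 32 h replicate 1, 3 without WT 32 h replicate 1 and 1 without WT 32 h replicate 2, where Ndufa13 is the call that was kept throughout. For the double KO 7 were lower and 8 higher at 32 h (17.8% and 21.4% of all genes), with a median of 0.095. At 32 h 7 of the 8 stem cell markers were higher in each of these genotypes (0 lower in Ehmt1 KO and 1 in double KO cells; summed CPM 2259 and 2287 in Ehmt1 KO and 2383 and 2458 in double KO cells, against 1869 and 1813 in WT cells), and their part in these counts was not tested. The members higher in double KO cells included Uqcrq, a small subunit of complex III, with 134.9 and 130.6 CPM in double KO cells, against 62.0 and 91.7 CPM in WT cells (0.79 ± 0.23, adjusted p = 0.0158). Atp5g1, one of the c-ring genes, had 158.1 and 146.5 CPM in double KO cells, against 93.6 and 87.8 CPM in WT cells (0.75 ± 0.23, adjusted p = 0.0217), and Uqcr10 was higher by 0.52 ± 0.13 (adjusted p = 0.00648). The count of 15 became 5 without double KO 32 h replicate 1, 3 without WT 32 h replicate 1 and 5 without WT 32 h replicate 2, and 26 (18 higher and 8 lower) with only the groups compared; Ndufa13 and Ndufb11 were kept under all 8 alternatives. Zic2 KO cells had no member called against WT cells at the ESC stage (0 by edgeR and DESeq2, 7 at an unadjusted p under 0.05; 0.115% of all genes lower and 0.16% higher) or at 32 h (0 by both tools, 3 unadjusted; 0.0319% lower and 0.0447% higher). With only the Zic2 KO and WT groups in the fit, 3 members were called higher at 32 h, and without WT ESC replicate 2 1 was called at the ESC stage.

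**Figure D4:**
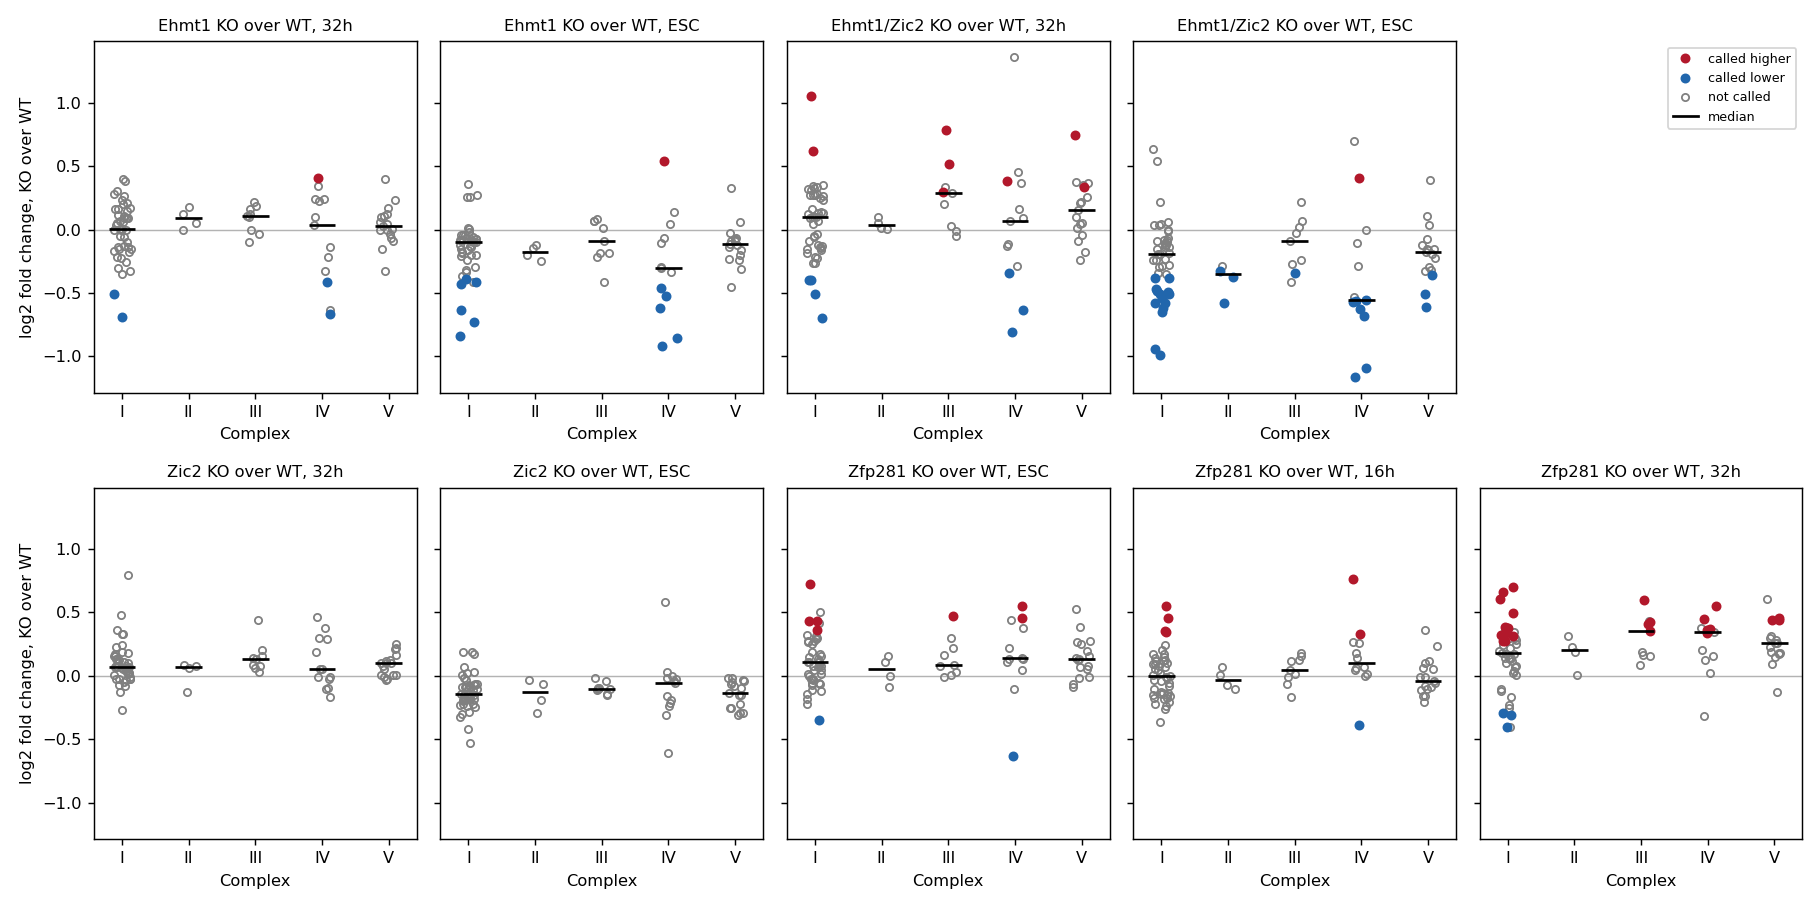
Log2 fold change of each member in KO against WT cells at each stage, for Ehmt1 KO, Zic2 KO and double KO (polyA kit) and Zfp281 KO (depleted kit); filled points are called at adjusted p under 0.05 and bars mark the median of each complex. Over all members the double KO median is -0.239 at the ESC stage and 0.095 at 32 h, and the Zfp281 KO median is 0.229 at 32 h.

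Against WT cells, the share of members called higher in Zfp281 KO cells was above that of all genes at 32 h, near it at the ESC stage and below it at 16 h. At the ESC stage 7 were called higher and 2 lower (8.5% and 5.3% of all genes), with a median of 0.111. At 16 h 6 were higher and 1 lower (15.3% and 13.3% of all genes), with a median of 0.013. At 32 h 24 were higher and 3 lower (16.6% and 11.9% of all genes), with a median of 0.229 against -0.066 over all genes. At 32 h the higher calls were 12 of 45 in complex I, 0 of 4 in complex II, 4 of 9 in complex III, 5 of 12 in complex IV and 3 of 17 in complex V. Stem cell markers were higher in the KO cells at 32 h too (5 of 8 called higher and 0 lower, median 1.394). Their summed CPM was 2399 and 2490 in KO cells, against 1950 and 1519 in WT cells. Of 84 cytosolic ribosomal protein genes 14 were called higher and 0 lower, and the higher calls were near the 16.6% of all genes. The part of either list in the members' result was not tested. The member counts moved with single libraries and with scaling. At the ESC stage 57 were called without WT replicate 1, 1 without KO replicate 1, 0 without KO replicate 2 and 17 without the second WT line (6 higher and 11 lower), DESeq2's size factors gave 1 higher and 2 lower, and only the groups compared gave 3 higher and 2 lower. At 32 h 11 were called without WT replicate 2, 3 without either KO library, and 12 higher and 4 lower with DESeq2's size factors. At 16 h 20 were called without WT replicate 1, 13 without WT replicate 2, 2 without KO replicate 1 and 1 without KO replicate 2.

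The 4 genes called higher at every stage were Cox6b2, Ndufa4, Ndufa1 and Cox7b. The same KO clones and WT lines were sampled at each stage, so the stages are not independent. The matching overlap over all genes was not computed. Cox6b2, a form of subunit 6b best known from testis, had 45.3 and 51.9 CPM in KO cells, against 33.7 and 33.9 CPM in WT cells at the ESC stage. At 16 h it had 37.9 and 44.1 CPM in KO cells, against 26.2 and 22.7 CPM in WT cells. At 32 h it had 38.8 and 40.5 CPM in KO cells, against 30.5 and 26.3 CPM in WT cells. The KO libraries lay above the WT libraries at each stage, with log2 fold changes of 0.55 ± 0.11 (adjusted p = 0.0115), 0.76 ± 0.12 (adjusted p = 0.00269) and 0.55 ± 0.11 (adjusted p = 0.00559) at the ESC stage, 16 h and 32 h. Ndufa4 had 100.7 to 106.7 CPM in all 6 KO libraries, against 63.1 to 85.5 CPM in the 6 WT libraries, with the lowest value in the second WT line at 32 h. Its log2 fold change was 0.43 ± 0.11, 0.35 ± 0.08 and 0.60 ± 0.11 at the 3 stages. Ndufa11, a membrane-arm subunit of complex I, had 61.2 and 60.8 CPM in KO cells, against 43.3 and 37.5 CPM in WT cells at 32 h (0.66 ± 0.09, adjusted p = 0.000764), and with Ndufa5 (0.49 ± 0.08, adjusted p = 0.00156) it was called under all 9 alternatives at that stage.

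Ndufa1 and Cox7b are encoded on the X chromosome, as is Ndufb11, and X-linked genes as a whole were higher in Zfp281 KO cells. Their median log2 fold change was 0.413 at the ESC stage, 0.361 at 16 h and 0.254 at 32 h. The X chromosome took 4.4% to 4.8% of counts in the KO libraries, against 3.94% to 3.98% in the first WT line and 3.33% to 3.49% in the second. Ndufa1 had 34.8 and 37.9 CPM in KO cells, against 26.0 and 18.7 CPM in WT cells at the ESC stage (0.73 ± 0.19, adjusted p = 0.0334). Cox7b had 544.4 and 537.5 CPM in KO cells, against 458.9 and 347.4 CPM in WT cells (0.46 ± 0.12, adjusted p = 0.041). In both genes the second WT line was the lower, and the part of the X chromosome in these differences was not tested. Ndufb11 was at 0.41 ± 0.17 (adjusted p = 0.147) and was not called.

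Among members lower in Zfp281 KO cells, Cox5b had 81.1 CPM in both KO libraries, against 119.1 and 136.9 CPM in WT cells at the ESC stage (-0.64 ± 0.11, adjusted p = 0.0058). At 16 h it had 85.1 and 82.8 CPM in KO cells, against 109.5 and 113.4 CPM in WT cells (-0.39 ± 0.08, adjusted p = 0.00805). At 32 h it had 98.0 and 93.0 CPM in KO cells, against 131.7 and 117.5 CPM in WT cells (-0.32 ± 0.11, adjusted p = 0.0586), so that the libraries stayed apart although the call was missed. At 32 h Ndufaf7 (-0.40 ± 0.09, adjusted p = 0.00831), Ndufa7 (-0.31 ± 0.09, adjusted p = 0.023) and Ndufv3 (-0.29 ± 0.08, adjusted p = 0.0238) were the lower calls.

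**Figure D5:**
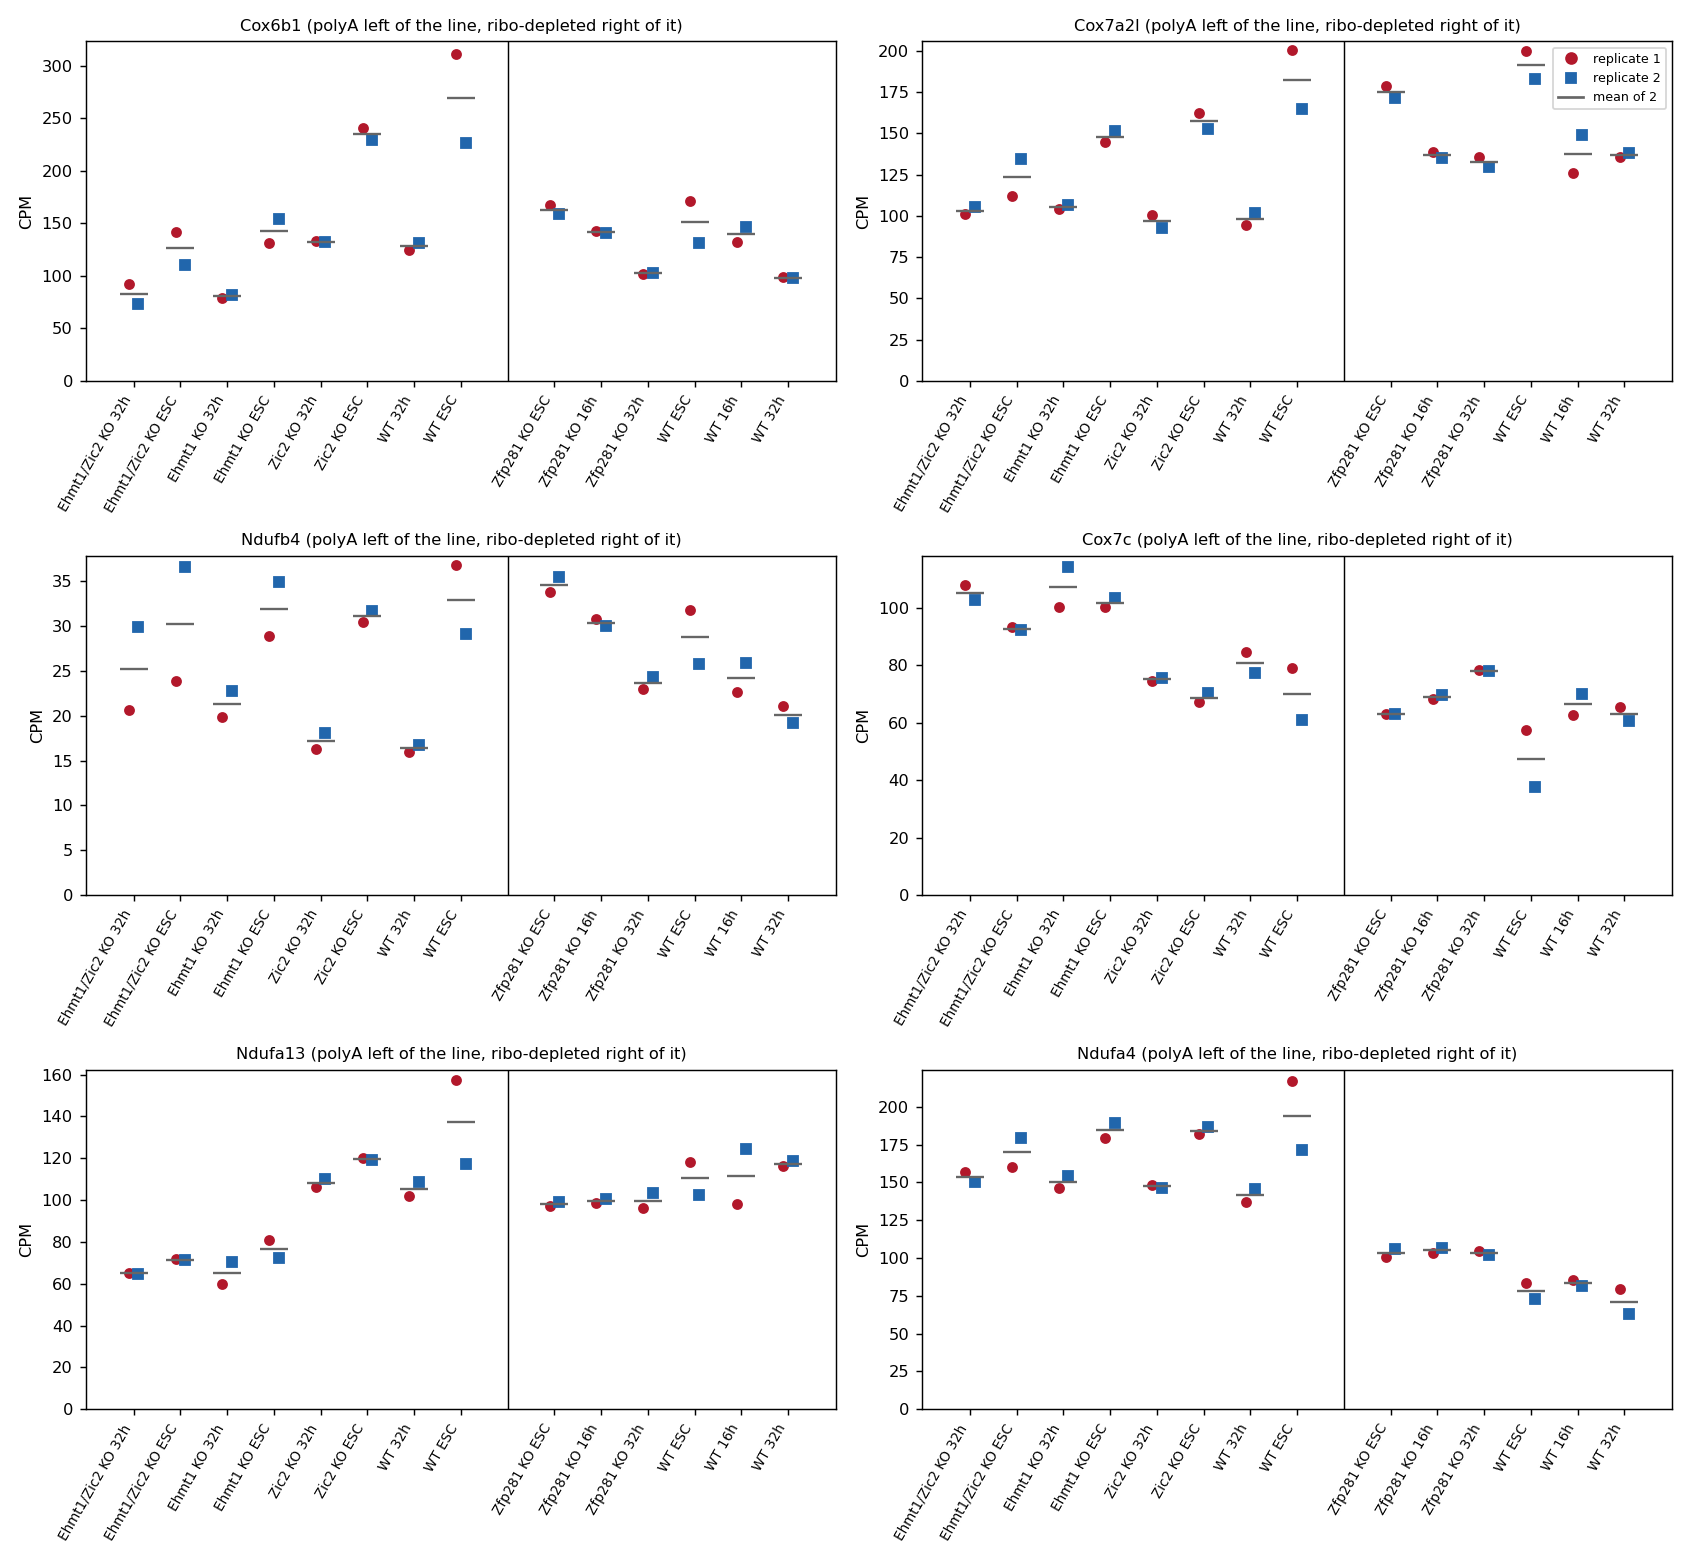
CPM of Cox6b1, Cox7a2l, Ndufb4, Cox7c, Ndufa13 and Ndufa4 in each library (points) with group means (lines), by genotype and stage, the polyA kit left and the depleted kit right of the vertical line. Cox6b1 is lower at 32 h than at the ESC stage in every genotype and lower in Ehmt1 KO and double KO than in WT cells.

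Isoforms of single subunits were followed in polyA WT cells. Cox6b2 (-1.13 ± 0.28, adjusted p = 0.00721) and Cox6b1 were both lower at 32 h. Cox7a1, the heart and muscle form of subunit 7a, had 3.33 and 3.07 CPM at 32 h, against 14.2 and 7.96 CPM at the ESC stage (-1.79 ± 0.65, adjusted p = 0.0467). It varied most between clones: the double KO clones had 29.1 and 6.86 CPM at the ESC stage. Its ubiquitous counterpart Cox7a2 fell by 0.63 ± 0.12 (adjusted p = 0.0013). Outside the limit on CPM, Ndufa4l2, a paralog of Ndufa4 known from hypoxic cells, had 1.80 and 2.49 CPM at 32 h, against 0.95 and 0.70 CPM at the ESC stage (1.37 ± 0.50, adjusted p = 0.0472), and in the depleted WT cells 2.42 and 1.75 CPM, against 0.89 and 0.68 CPM (1.44 ± 0.42, adjusted p = 0.0311). It was higher at 32 h while Ndufa4 fell in the polyA kit.

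Other lists of the pathway were followed in polyA WT cells at 32 h against the ESC stage, where 17.8% of all genes were called lower and 17.9% higher. Of 8 genes of cytochrome c, inner-membrane carriers and outer-membrane Vdac channels 4 were lower and 0 higher (median -0.403). Of 13 genes of the TCA cycle 4 were lower and 1 higher (median -0.201). Of 18 assembly factors of complex IV 2 were lower and 0 higher, of 78 mitochondrial ribosomal protein genes 2 were lower and 1 higher (median -0.108), and of 83 cytosolic ribosomal protein genes 21 were lower and 1 higher (median -0.28), and their part in the members' result was not tested. Slc25a4, the ADP/ATP carrier that exports the ATP made by complex V, had 289.7 and 308.3 CPM at 32 h, against 1032 and 895.8 CPM at the ESC stage (-1.69 ± 0.13, adjusted p = 1.71e-06). It was also lower in the depleted WT cells, with 384.6 and 329.6 CPM at 32 h, against 1048 and 878.2 CPM at the ESC stage (-1.40 ± 0.10, adjusted p = 1.44e-05). Double KO cells had 571.1 and 466.2 CPM at 32 h, against 689.7 and 612.7 CPM at the ESC stage, and its stage change was smaller than in WT cells (interaction 1.36 ± 0.18, adjusted p = 0.00159). Tfam, which packages and transcribes mitochondrial DNA, was higher at 32 h in WT cells (0.41 ± 0.09 in both kits, adjusted p = 0.0038 in the polyA and 0.0088 in the depleted kit), as was Myc (1.01 ± 0.22 and 0.83 ± 0.16). Both belong to a list of 18 biogenesis regulators, whose other members went both ways. The list summed to 1068 and 945.9 CPM at 32 h in depleted WT cells, against 1646 and 1443 CPM at the ESC stage. Esrrb, also of the list, had 113.2 and 56.3 CPM there, against 624.9 and 577.4 CPM. In polyA WT cells Polg had 70.6 and 72.1 CPM at 32 h, against 106.7 and 101.4 CPM, and Tfb1m 21.7 and 23.0 CPM, against 15.4 and 17.7 CPM.

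In KO cells the same lists differed from WT cells as follows. Uqcc2, an assembly factor of complex III, was lower in double KO (-1.56 ± 0.18, adjusted p = 4.07e-05), Ehmt1 KO (-1.24 ± 0.18, adjusted p = 0.000268) and Zfp281 KO cells (-0.69 ± 0.11, adjusted p = 0.00343) at the ESC stage. It had 15.4 and 21.1 CPM in double KO and 23.7 and 21.9 CPM in Ehmt1 KO cells, against 63.8 and 43.8 CPM in WT cells. Of the 8 genes of cytochrome c, carriers and Vdac channels 5 were lower and 0 higher in double KO cells at the ESC stage. There 18.5% of all genes were called lower and 20.9% higher. In Zfp281 KO cells at 32 h 4 of these 8 were higher and 0 lower (16.6% and 11.9% of all genes). Slc25a5 was at 0.80 ± 0.16 (adjusted p = 0.00619) and Slc25a4 at 0.49 ± 0.10 (adjusted p = 0.00599). Of 18 complex IV assembly factors 5 were higher and 0 lower in the same contrast, with the same shares of all genes. Among the 5 were the copper chaperones Cox17 (0.68 ± 0.09, adjusted p = 0.000705) and Sco1 (0.69 ± 0.10, adjusted p = 0.000958). In double KO cells at 32 h 5 of the 18 were higher and 1 lower, where 21.4% of all genes were called higher and 17.8% lower. Taco1, a translational activator of cytochrome c oxidase subunit I, was at 1.13 ± 0.23 (adjusted p = 0.00223).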

How the data were processed

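RNA-seq was deposited as raw read counts per Entrez gene ID by the authors, in one table for the ESC stage and 32 h and another for 16 h; GRCm38 (mm10) and edgeR are named per the submitters' processing notes. No source used here states the aligner, the counting tool, the annotation or the strand setting, so overlapping genes and near-identical copies may share reads. Per the labels' protocols, Zfp281 KO and matching WT RNA was depleted with Ribozero and made into ScriptSeq libraries, and the other RNA went into TruSeq mRNA libraries; the kits were fitted apart. Symbols were found for 24061 of 24116 IDs and not for 55. CPM were computed from library totals after TMM scaling over all libraries of the kit. Tests used edgeR 4.0.16 (R 4.3.3, limma 3.58.1): filterByExpr with a minimum count of 10 and a total of 15, TMM scaling, robust quasi-likelihood F tests and Benjamini-Hochberg adjustment over all genes passing, with adjusted p under 0.05 called. The SE was taken as the size of the log2 fold change over the square root of its F statistic. Depleted ESC and 32 h libraries were fitted as 8, the 16 h ones as 4 for KO against WT and all 12 together for stage contrasts with 16 h, and the polyA libraries as 16. Tests were checked on simulated counts.

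Alternatives were DESeq2 1.42.0, its size factors, no filter, only the groups compared, each library left out, the second depleted WT line left out, other CPM limits (1 and 20) and the line as a replicate block. The same line was sampled at each stage, so lines pair the stages; their deviations from group means correlated at 0.08 to 0.65 over genes. Within-line changes used a pseudocount of 0.5 CPM. Any member could be named; those with a fold change and adjusted p were, per complex and direction, up to 3 called members with the largest change (the 2 highest in CPM where none was called), plus isoforms, assembly factors and up to 4 genes of each other list. Some further members are given beside these and were chosen after their values were seen. Members, lists and tests were chosen with earlier results of these data known.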

Additional observations from a re-analysis of the deposited data

Results flagged for a closer look

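The stage change of members differed between double KO and WT cells for 1 gene by the interaction test in the polyA kit, 1 of 88 members where 5.29% of all genes were called. It was Cox7a2l, whose fall between the ESC stage and 32 h was smaller in the double KO by 0.634 ± 0.16 on the log2 scale (edgeR, adjusted p = 0.0388). The gene's levels at 32 h overlapped between the genotypes, and at the ESC stage both double KO libraries (112.3 and 134.4 CPM) lay below both WT libraries (200.4 and 164.6 CPM). With only the groups compared, or with any of 6 of the 8 libraries left out, 0 members were called.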

How the results depend on the processing

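Calls here are members called in either direction, and only alternatives that moved a count by over 1.5 times are named. No named member reversed its direction under any alternative; over named members and alternatives, calls were kept in 987 cases and lost in 401. The replicate block on line gave 41 for depleted WT cells at 32 h against the ESC stage (15 in the main analysis), 24 for Zfp281 KO cells (10), 4 for their interaction (0), 17 for WT at 32 h against 16 h (8), 2 for Zfp281 KO at 32 h against 16 h (1), 33 for Ehmt1 KO (16), 31 for Zic2 KO (19) and 10 for double KO cells (2) at 32 h against the ESC stage, and 10 for the double KO interaction (1); pairing by line moved no other count as far. With no filter, the counts were 8 for depleted WT and 4 for Zfp281 KO cells at 32 h against the ESC stage, 7 for WT and 1 for Zfp281 KO cells at 16 h against the ESC stage, 0 for Zfp281 KO at 32 h against 16 h, and for Zfp281 KO against WT 4 at the ESC stage and 15 at 32 h. With only the groups compared, they were 1 for depleted WT and 41 for Zfp281 KO cells at 32 h against the ESC stage, 5 for WT and 21 for Zfp281 KO cells at 16 h against the ESC stage, 12 for Zfp281 KO at 32 h against 16 h, 53 for Zic2 KO and 0 for double KO cells at 32 h against the ESC stage, and 0 for the double KO interaction. For KO against WT cells the same fit gave 5 for Zfp281 KO, 5 for Ehmt1 KO and 7 for double KO cells at the ESC stage, and 3 for Zic2 KO and 26 for double KO cells at 32 h. DESeq2's size factors gave 3 and 16 for Zfp281 KO against WT at the ESC stage and 32 h, and DESeq2 gave 16 for WT at 32 h against 16 h and 4 for the double KO interaction. Without the second depleted WT line the counts were 45 for WT at 32 h against the ESC stage, 32 at 16 h against the ESC stage, 13 at 32 h against 16 h, 17 for Zfp281 KO against WT at the ESC stage and 13 for their interaction. With 1 library left out at a time, the stage counts ranged from 9 to 44 for depleted WT and 0 to 2 for Zfp281 KO cells (32 h against ESC), 1 to 33 and 0 to 0 (16 h against ESC), and 2 to 15 and 0 to 0 (32 h against 16 h); in the polyA kit from 20 to 70 for WT, 8 to 10 for Ehmt1 KO, 8 to 15 for Zic2 KO and 1 to 9 for double KO cells. For KO against WT they ranged from 0 to 57, 1 to 20 and 3 to 22 for Zfp281 KO at the ESC stage, 16 h and 32 h, 7 to 16 and 1 to 6 for Ehmt1 KO, 0 to 1 and 0 to 0 for Zic2 KO, and 14 to 48 and 3 to 10 for double KO cells at the ESC stage and 32 h, and for the interactions from 0 to 3 for Zfp281 KO, 0 to 0 for Ehmt1 KO and Zic2 KO and 0 to 21 for the double KO. The cause of these moves was not tested, beyond the smaller number of libraries where some were left out. Member medians changed sign in 8 of the 23 contrasts under at least 1 alternative, in each of them when a WT library was left out, and the largest such median was 0.16 in the main analysis. Among all genes, DESeq2 called 165 genes between Zic2 KO and WT cells at 32 h, 47.9% of them higher, against 12 genes, 58.3% of them higher, by edgeR. With 2 lines a group, small changes of members at low CPM (Ndufaf3, Ndufaf8 and Cox7a1) are the least precise.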
